A study of Mus musculus with 2 samples.

Results

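The mouse genome carries a block of related miRNA genes, the families miR-297, miR-466, miR-467 and miR-669, inside an intron of Sfmbt2. The 69 genes described here are those rows of the count tables whose Ensembl identifier has a GENCODE M21 symbol starting with Mir297, Mir466, Mir467 or Mir669, out of 1973 miRNA genes in all. They were sequenced as small RNA below 30 nucleotides from whole stomachs of newborn mice (postnatal, 0 days) of the strain B6NCrl. The series holds 2 libraries in 1 group, 1 stomach each from pup1 and pup2 of 1 dam, with no treatment or altered allele named in the labels and sex not collected. There is no contrast between conditions, so the values describe levels in this tissue and the spread between 2 littermates.

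A miRNA is cut from a hairpin in a longer transcript and loaded into an Argonaute protein, where its seed, bases 2 to 8, pairs with messenger RNAs. Sfmbt2 encodes a Polycomb group protein, is imprinted with expression from the paternal copy in early development and placenta, and its intronic miRNA block is a rodent expansion best known from placenta and early embryonic cells. The hairpins of the block are rich in alternating UG and CA, and many are near copies of each other. A read from such a copy fits several places in the genome.

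The label of the block held for most but not all genes. By position, 59 of the 69 lay inside Sfmbt2 on its own strand, all of them within the intron between exon 10 and exon 11 of transcript Sfmbt2-201, which runs from 10461473 to 10523944 on chromosome 2 (GRCm38, plus strand). They occupy 51617 nt of this 62472-nt intron. The other 10 lay elsewhere, Mir466q in an intron of Tnik and 9 with no host gene on their strand. The annotation places another 48 miRNA genes of the tables inside Sfmbt2 under provisional symbols, and 12 more genes named for these families are not analysed here.

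The RefSeq (GRCm38.p6) entries used here gave mature sequences for 8 of the 69 genes, all of them outside Sfmbt2. Members inside Sfmbt2, among them all detected ones, had no entry in that set, which does not show what RefSeq as a whole holds. The 8 sequences are shown because they make the repeat character visible, with the seed in capitals. Members outside Sfmbt2 held longer unbroken runs of alternating UG or CA in the hairpin, with a median of 13 nt against 9 nt inside.

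miR-466i-3p: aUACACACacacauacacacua
miR-466j: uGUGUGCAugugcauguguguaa
miR-466k: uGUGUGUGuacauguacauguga
miR-466q: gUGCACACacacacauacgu
miR-467f: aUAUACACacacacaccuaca
miR-467g: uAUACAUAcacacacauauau
miR-467h: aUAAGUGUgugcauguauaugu
miR-669n: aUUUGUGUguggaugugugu

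The 8 seeds differ from one another, and even genes of 1 family do not share one here. The UG type (miR-466j, miR-466k, miR-669n) and the CA type (miR-466i-3p, miR-466q, miR-467f, miR-467g) follow the complementary strands of the same repeat. Each seed was searched as letters on the own strand of all 2202 M21 miRNA hairpins, which vary in length. The CA seed UACACAC of miR-466i-3p occurred in 40 of the 69 members and in 8.17% of all hairpins. The UG seed GUGUGUG of miR-466k also occurred in 40 members, and in 9.54% of all hairpins. The seed UAAGUGU of miR-467h was rare, in 2 members and 0.636% of hairpins, and Mir467e was the 1 well-counted member that held it. The whole mature sequence of miR-467h matched 3 hairpins exactly, while each of the other 7 matched its own hairpin only. A match is a run of letters and does not show a site that is used. The genes of these 8 sequences had 0 counts in both pups. A genome sequence was not used here, so exact matches outside miRNA hairpins were not counted.

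Own-strand reads on miRNA genes numbered 4463355 in pup 1 and 3454655 in pup 2, and levels are given as counts per 1000000 of these (CPM). A gene counted as detected when both libraries had 10 own-strand counts or more, which held for 305 genes. A count of 0 allows up to 0.672 CPM in pup 1 and 0.868 CPM in pup 2, taking 3 counts as the limit. The two-sided exact 95% limits are 0.826 and 1.07 CPM. Both kinds of limit concern reads that fit 1 place. Intervals and limits cover counting error only, since PCR reads are not independent molecules. Each read covers most of a mature miRNA of about the same length in every gene, so levels were not divided by hairpin length, and the tables do not tell the arms of a hairpin apart. All 15 markers of smooth muscle, squamous, glandular and general epithelium and endothelium, such as Mir143 and Mir203, were detected. Of markers of other cells, the hepatocyte gene Mir122 (1 of 1) and 3 of 3 leukocyte genes were detected, and 0 of 3 pancreas genes. Their part in the members' levels was not tested. Reads mapping to several places made up 26.0% and 25.7% of all reads and are listed in a row of their own, apart from the genes.

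The larger part of the members stayed below the minimum, as did the larger part of all rows. Of the 69 members 8 were detected (11.6%), 9 had some count below the minimum and 52 (75.4%) had none in either pup. Over all rows with an M21 symbol, 16.1% were detected and 65.6% had no count. The members together held 9265 counts in pup 1, or 0.208% of own-strand counts (exact 95% interval 0.203% to 0.212%), and 6505 in pup 2, or 0.188% (0.184% to 0.193%). The mean share was 0.198% ± 0.0136 (SD, n = 2). The 8 detected genes supplied 99.6% and 99.8% of these counts.

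**Figure D1:**
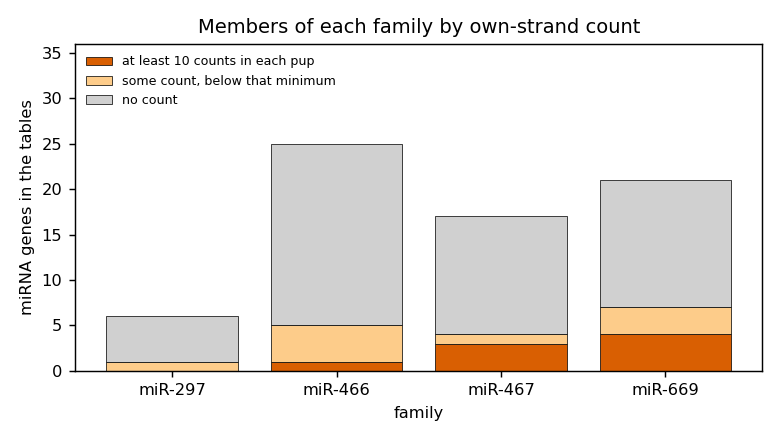
Number of miRNA genes of each family in the tables, stacked by own-strand count. The bar of miR-466 is the tallest with 25 genes but has 1 gene with at least 10 counts in each pup, while miR-467 has 3 of 17 and miR-669 has 4 of 21.

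The families differed in the level of their counts, and differences in detection between them were not tested. The miR-467 family had 3 of 17 genes detected (17.6%) and held 0.163% ± 0.0112 of the counts. The miR-669 family had 4 of 21 detected (19.0%) and held 0.0342% ± 0.00239. Both percentages lay near the 16.1% over all rows with an M21 symbol. In the miR-466 family, the largest with 25 genes, 1 was detected (4%). That family held 0.000873% ± 0.000157, from 34 counts in each pup. None of 6 miR-297 genes was detected, and their 14 and 3 counts all came from Mir297a-2. The order of the families from miR-467 down to miR-466 held in both pups, whereas miR-466 and miR-297 were separated by 34 against 14 counts in pup 1 and 34 against 3 in pup 2.

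The leading genes were the miR-467 genes Mir467d, Mir467e and Mir467c, which together made up 82.2% of the members' counts in each pup. Mir467d (chromosome 2, 10507630 to 10507714) had 2799 counts in pup 1 and 2035 in pup 2, or 627 and 589 CPM. Mir467e (10505721 to 10505807) had 2735 and 1947 counts, or 613 and 564 CPM. Mir467c (10473931 to 10474027) had 2079 and 1363 counts, or 465.8 and 395 CPM. Mir467d and Mir467e were close, at 608 ± 26.9 and 588 ± 34.8 CPM (SD, n = 2), a gap smaller than the SD of either level. Compared within each pup, Mir467d was the higher in both, by 0.03 and 0.06 on the log2 scale (0.05 ± 0.02), so the order held in these libraries at a ratio of 1.03. Both stood above Mir467c in both pups, Mir467d by 1.42-fold, or 0.50 ± 0.11 on the log2 scale. Among the 305 detected genes of the stomach the level of Mir467d took rank 100, Mir467e rank 103 and Mir467c rank 115.

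The hairpins of these 3 genes are close relatives. Mir467d and Mir467e were identical in 80 of 87 alignment columns (92.0%), Mir467c and Mir467d in 83.5% and Mir467c and Mir467e in 83.7%. The miR-467 family also holds Mir467b and 10 copies of Mir467a, which has been studied as a glucose-regulated miRNA of vascular cells and macrophages. The 10 Mir467a copies had 0 counts in both pups, and Mir467b had 2 counts in pup 1 and 0 in pup 2. The level of Mir467a cannot be read from these counts, since reads that fit several places are listed apart from the genes.

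The miR-669 genes formed the next step down. Mir669o (10514300 to 10514395) had 731 and 513 counts, or 164 and 148 CPM. Mir669l (10468971 to 10469068) had 617 and 427 counts, or 138 and 124 CPM. Mir669c (10509296 to 10509404) had 215 and 153 counts, or 48.2 and 44.3 CPM. In each pup the order was Mir669o, Mir669l, Mir669c, and the values of neighbours in this order did not overlap over the pups. Mir467c exceeded Mir669o by 2.75-fold, or 1.46 ± 0.07 on the log2 scale. Mir669o exceeded Mir669l by 1.19-fold (0.25 ± 0.01) and Mir669c by 3.38-fold (1.76 ± 0.01). Mir669o and Mir669l shared 81.8% of alignment columns, and Mir669o and Mir669c 73.9%. Mir669a, a member of this family known for restraining skeletal muscle differentiation, is present in the tables as Mir669a-1, Mir669a-2 and Mir669a-3. They had 0, 0 and 0 counts in pup 1 and 0, 0 and 1 in pup 2. Of the 20-nt stretches of these hairpins, 100%, 100% and 71.1% also occur in another annotated hairpin. The level of Mir669a cannot be read from these counts, since reads that fit several places are listed apart from the genes.

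Below these came genes near the minimum, where counting error is wide. Mir466n (10513741 to 10513834) had 31 counts in each pup, or 6.95 and 8.97 CPM, and was the 1 detected miR-466 gene. Mir669e (10467495 to 10467613) had 24 and 20 counts, or 5.38 and 5.79 CPM. Mir669h had 13 and 7 counts and Mir297a-2 had 14 and 3, so each passed 10 counts in pup 1 only. Mir669c exceeded Mir466n by 5.85-fold (2.55 ± 0.35 on the log2 scale). The difference between Mir669h (2.91 and 2.03 CPM) and Mir297a-2 (3.14 and 0.868 CPM) was smaller than its spread, at 0.56 ± 0.94. From Mir467d down to Mir669e the detected members spanned 109-fold, or 6.77 ± 0.14 on the log2 scale. The other 7 members with a count had at most 2 in either pup. One of them, named for its known role, is Mir466l, which stabilises Il10 messenger RNA in macrophages and had 0 and 1 counts.

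**Figure D2:**
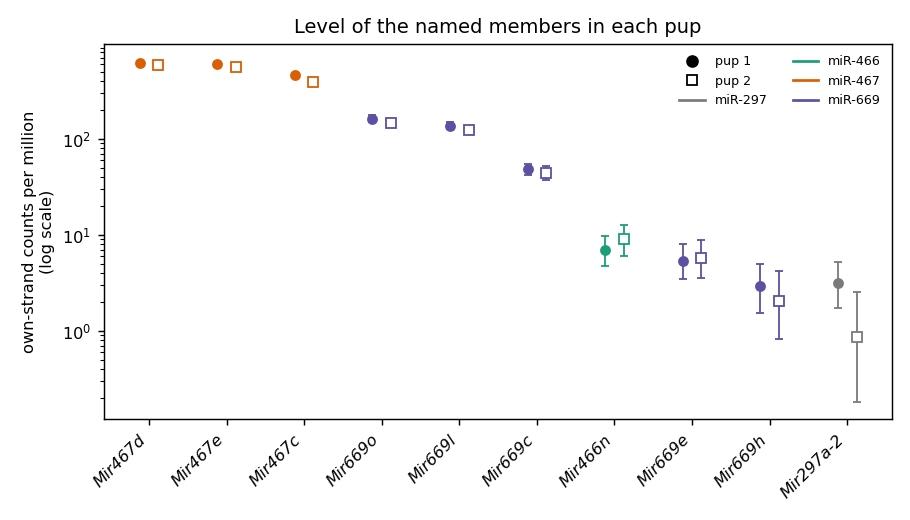
Own-strand CPM (log scale) of the 10 members with at least 3 counts in either pup, pup 1 filled and pup 2 open, with exact 95% intervals for counting error. The miR-467 genes lie between 395 and 627, the 3 leading miR-669 genes between 44.3 and 164, and the last 4 genes below 10. The intervals of the pups are apart for Mir467e and Mir467c and overlap for the other 8 genes.

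All counts of the families came from inside Sfmbt2 and from its own strand. The 59 members inside the intron held 100% of the members' counts in each pup, with an exact lower bound of 99.96% in pup 1 and 99.94% in pup 2. The 10 members outside had 0 counts in both pups. Of these 10, 9 share a stretch of 20 nt with another hairpin. Reads that fit several places are not in these counts, so the bounds do not cover them. On the strand opposite to the gene, members had 0 counts in both pups, as had the genes of the other multi-copy families described below. Of all gene counts 2.26% and 2.15% lay there, but unevenly over the genes. The 15 markers above had 40 and 39 counts there, beside 2109386 and 1601801 on their own strand. The hepatocyte and leukocyte genes also had 0, so a count of 0 there is not particular to repeat families. The 48 other miRNA genes inside Sfmbt2 had 0 detected, 5 with some count and 3 and 5 counts in all.

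Along the intron, the counted genes lay at both ends of the block and left its middle empty. The miR-467 genes recur at a regular distance, with start-to-start steps of 2413 to 2470 nt (median 2452) over the 9 steps from Mir467a-1 to Mir467a-9. Within the stretch from Mir467a-1 to Mir467a-10 none of 23 members was detected, and they had 2 counts in pup 1 and 0 in pup 2. Before that stretch 3 of 15 members were detected, Mir669e, Mir669l and Mir467c. After it 5 of 21 were detected (23.8%), Mir467e, Mir467d, Mir669c, Mir466n and Mir669o. Both percentages lay near the 16.1% over all rows with an M21 symbol. The stretch was chosen after the values were seen, and the contrast is a description. The near-copies concentrate there too: a median of 100% of all 20-nt stretches of a hairpin in the middle occurred in another annotated hairpin, against 61.5% for the 36 members on both sides.

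**Figure D3:**
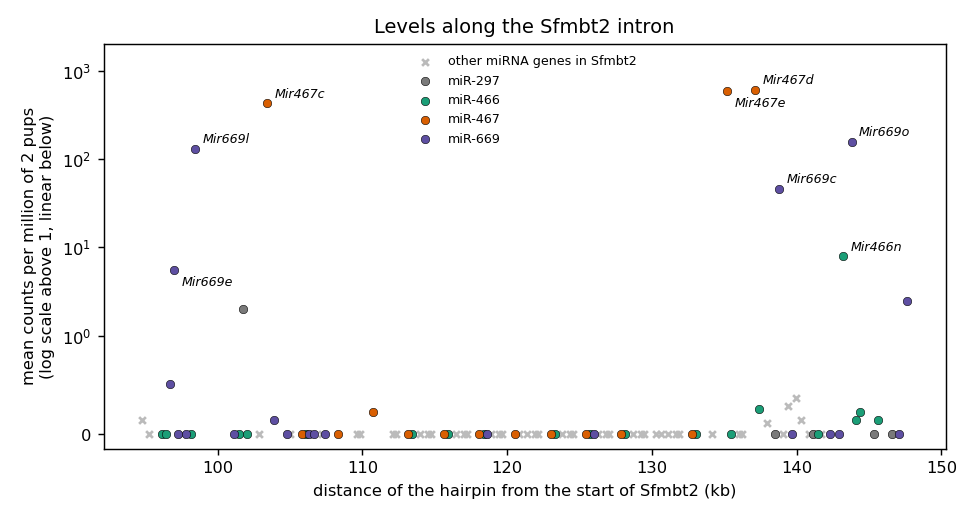
Mean CPM of the 2 pups (log scale above 1, linear below) against the distance of each hairpin from the start of Sfmbt2, in kb. The 8 labelled genes are those with at least 10 counts in each pup, and the stretch of regularly spaced miR-467 genes between them lies at or near 0.

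Sequence shared with other hairpins was nearly universal in the block. A run of 20 nt or longer that also occurs in a hairpin elsewhere, read on either strand, was found for 67 of 69 members, against 862 of the 1825 other genes. The median member shared 67.1% of its 20-nt stretches. In the 4 ranges of this percentage, 2 of 11 members were detected below 25%, 5 of 10 from 25% to under 50%, 1 of 23 from 50% to under 75% and 0 of 25 from 75% upward. The 20 members whose every stretch was shared had 0 counts. Among the detected members the percentage ran from 5.00% for Mir669e to 62.1% for Mir467d. A low percentage did not go with counts in every gene: of 8 members under 15%, 1 was detected and 4 had no count, and Mir669n, which shared no stretch, had 0 counts.

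**Figure D4:**
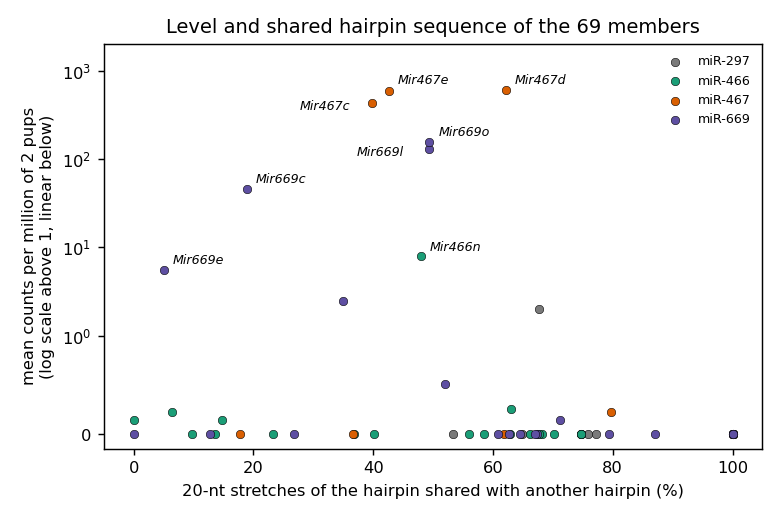
Mean CPM of the 2 pups (log scale above 1, linear below) of all 69 members against the percentage of 20-nt stretches of the hairpin found in another annotated hairpin. The 8 labelled detected members lie between 5.00% and 62.1%, and the members at 100% all lie at 0.

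The reads that map to several places set the limit on these levels. They numbered 1873722 in pup 1 and 1425289 in pup 2, which is 202 and 219 reads for each read counted on a member. The tables do not say which genes these reads fit, so the part that came from the families cannot be told from them, and the counts here do not include the reads of that row. Among other genes, 62 of 862 that share a stretch were detected (7.19%), as were 235 of 963 that share none (24.4%). The members' 11.6% lies between these, and no test of the difference was made.

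The typical member holds more of the repeat than the typical hairpin of another gene, whether counted or not. The dinucleotides TG, GT, CA and AC made up a median of 51.2% of all dinucleotides in a member's hairpin and 26.6% in the 1825 other genes, of which single ones reach 90.9%. The detected members had a median of 49.4% and the members with no count 51.7%. The longest unbroken run of alternating TG or CA was 28 nt among members, in Mir466q outside Sfmbt2, and 52 nt among the other genes. Among members inside Sfmbt2 it reached 15 nt. In detected members it ran from 8 to 15 nt with a median of 8.5. Hairpin length was alike, with medians of 96.5 nt in detected members and 90 nt in those with no count.

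Other groups of miRNA genes that occur in many copies or mark early development give a frame for these counts. Of the 54 genes in the 9 other families with at least 4 genes to a symbol number, 19 were detected (35.2%), and 39 share a stretch. The miR-344 family had 0 of 13 genes detected and the miR-465 family 0 of 5, whereas the miR-30 family had 6 of 6. The Mir290 to Mir295 cluster, expressed in embryonic stem cells and placenta, had 0 of 7 detected with 5 and 4 counts in all. The Mir302 cluster, also of pluripotent cells, had 1 of 5 detected with 54 and 33 counts. The members' 9265 and 6505 counts stood far above both clusters in each pup, by sums that differ in the number of genes. These counts come from whole stomach, where fewer cells of a type and less RNA per cell cannot be told apart, and the cells that made them were not separated.

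The families held a slightly larger share in pup 1 than in pup 2, with exact intervals that do not overlap, but none of the 8 detected members differed by 1.5-fold. Mir669h (13 and 7 counts) and Mir297a-2 (14 and 3) lay below the minimum for the test, and without a minimum 0 of 17 members with a count were called. Ratios of pup 1 over pup 2 were scaled by TMM effective library sizes and tested by a two-sided exact binomial test over the 305 detected genes, and a gene was called when its adjusted p was under 0.05 and its ratio reached 1.5. This test compares these libraries, with 1 library on each side. None of the 8 detected members was called, and 2.95% of all genes were. Mir467c had the largest ratio, 0.34 on the log2 scale (exact 95% interval 0.24 to 0.44, adjusted p = 3.4e-11), followed by Mir669l at 0.26 and Mir669o at 0.24. By value 6 of 8 members were higher in pup 1, with Mir466n (-0.27) and Mir669e (-0.00) the others. Of all 305 genes, 145 (47.5%) were higher in pup 1. The median member lay at 0.22, beside -0.02 over all 305 genes. These members can come from 1 transcript and are not independent.

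Without the condition on the ratio, 5 of 8 members had an adjusted p under 0.05 in the exact binomial test, all higher in pup 1, and 5 had an unadjusted p under 0.05. Over all genes 52.1% passed the adjusted threshold, 27.9% with the higher level in pup 1, and 55.4% had an unadjusted p under 0.05. With the common dispersion of the 2 libraries as error, a coefficient of variation of 11.4%, edgeR's exact test gave none of the 8 an unadjusted p under 0.05, against 5.25% of all genes, and none an adjusted p under 0.05, against 0.328%. That dispersion was estimated from the same pair of libraries, so their differences set the error they are tested against, and this says little about the members. Scaled by own-strand totals alone, the median of all genes moved to -0.13 and that of the members to 0.12. Again 6 of 8 members were higher in pup 1, beside 104 of all 305 genes. On that scaling 2 of 8 members rather than 5 had an adjusted p under 0.05 in the exact binomial test, and 3 an unadjusted p under 0.05. Over all 305 genes the same scaling gave 146 and 160.

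**Figure D5:**
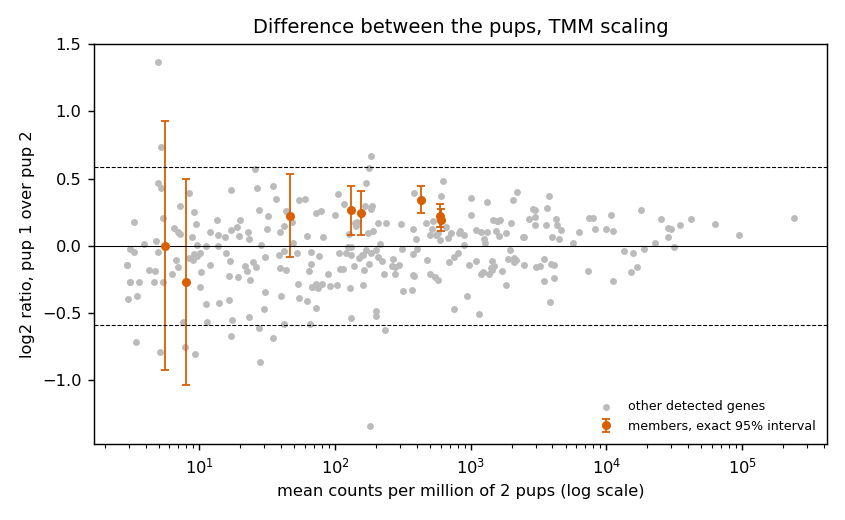
Log2 ratio of pup 1 over pup 2 after TMM scaling against the mean CPM of the 2 pups (log scale) for 305 detected genes, with members in orange and their exact 95% intervals. Dashed lines mark a ratio of 1.5 either way, and all 8 members lie between them, 6 of them above 0.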

How the data were processed

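Small RNA below 30 nt from 2 newborn stomachs was analysed from 1 table per library. The authors deposited raw read counts per miRNA gene, without regard to strand and for each strand. The accompanying description files name assembly mm10 and annotation M4, with the aligner and counter not given in the sources used here. Column 3 held the larger total in both libraries and was taken as the own strand. Reads that name no gene (36.5% and 36.3% of all reads) stayed out of totals. Of 1973 identifiers 1894 matched GENCODE M21 (GRCm38) without their version. Symbols, positions, introns and hairpins came from M21, and printed sequences from RefSeq.

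The 2 libraries form 1 group, so no quasi-likelihood fit was possible. Scaling and dispersion came from edgeR 4.0.16 and DESeq2 1.42.0 (R 4.3.3). Exact binomial tests came from scipy 1.17.1 with Benjamini-Hochberg adjustment over 305 genes. The test was run on simulated counts with counting error alone, which checks the code. Those counts held no spread between pups, so the run does not show how the test behaves on these libraries. Hairpins were aligned globally with Biopython 1.88. Named are all detected members and members with at least 3 counts in either library. Mir467a, Mir467b, Mir669a, Mir466l, Mir466q, Mir669n and the genes of printed sequences fall outside this rule and were picked with their values known. Members and lists were chosen with earlier results of these data known. Alternatives were other scalings, minimums, strands, error models and leaving out a pup.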

Additional observations from a re-analysis of the deposited data

How the results depend on the processing

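The number of detected members was 8, with 12 at a minimum of 1 count, 10 at 3 counts and 8 at 20 counts in each library, and 8 to 10 when either pup was left out. The share of the families was 0.198% of own-strand counts, 0.188% to 0.208% without either pup, and 0.194% with both strands counted. It was 0.123% of all reads in the tables, where unmapped reads and reads mapping to several places enter the total. Without the members that share 20 nt it fell to 1.45e-05%, since 2 members and 1 count remain. The share inside Sfmbt2 was 100% in every setting run, one of which rests on that 1 count. Over all genes 9 were called between the pups, 16 with own-strand totals (1 higher in pup 1 and 15 in pup 2, against 2 and 7) and 1 with edgeR's common dispersion. No member was called in any of the 5 settings tried. The ratio of Mir669e turned from -0.0035 to 0.021 with DESeq2 size factors and to 0.021 with no minimum count. Each of these settings shifted the ratios of all detected members by the same amount. The ratio of Mir467e, for example, went from 0.224 to 0.248 and 0.249. A ratio as near 0 as that of Mir669e changes sign under such a shift. The other 38 recomputed pup ratios of members kept direction and call. The 20 levels recomputed with TMM scaling or both strands stayed within 1 SD. Part of this was fixed beforehand. The edgeR setting uses the main ratios again, so their direction could not change. Counting both strands only enlarged the totals, as members had 0 counts on the opposite strand. The TMM factors, 0.965 and 1.036, move the 2 pups in opposite ways, so a mean of both changes little. Leaving out a pup moves a mean of 2 by under 1 SD in any case, yet Mir297a-2 went from 2.00 CPM to 0.868 without pup 1 and 3.14 without pup 2. No paired analysis was possible because there is 1 group, and leaving out a pup leaves no pup difference to compute. At these depths a gene with 0 counts can lie at up to 0.672 CPM in pup 1 or 0.868 CPM in pup 2. That limit concerns reads that fit 1 place. It sets no bound on members whose reads fit several places.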
